A study of Mus musculus with 12 samples.

Results

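The genes described here encode receptors for the B cell survival factor BAFF, receptors for TNF, the receptor CD27, and the TRAF and cIAP proteins that bind to receptors of this family inside the cell. They were chosen by name, with earlier results of these data known. The 10 members are *Tnfrsf13b*, *Tnfrsf13c*, *Tnfrsf1a*, *Tnfrsf1b*, *Cd27*, *Traf1*, *Traf2*, *Traf3*, *Traf5* and *Birc3*, out of 13574 genes with read counts. All 10 were among the 13269 genes counted at 0 h, and 9 were among the 13142 genes counted at 4 h. *Tnfrsf1a* was the member below the row cutoff at 4 h. The same 9 members had enough reads to be tested in every comparison.

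RNA was sequenced from follicular B cells (given as CD21/35-, CD23+), the main recirculating B cells of the spleen, sorted from adult male mice. WT mice were Gpr174+/Y. GPR174-deficient (KO) mice were Gpr174-/Y, with the only coding exon of this X-linked gene exchanged for a tdTomato reporter, so that every cell of a KO mouse lacked the receptor. One set of cells was frozen as soon as it was sorted (0 h) and another was first kept for 4 h in complete RPMI to which no stimulus was added. Each of the 4 groups had 3 libraries. The design gives 3 mice per genotype, and p-values measure the spread between these samples. Whether 0 h and 4 h libraries of the same number came from the same mouse is not given in the sources used here.

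BAFF-R, the product of *Tnfrsf13c*, binds BAFF and is needed for the survival of mature B cells, and TACI, the product of *Tnfrsf13b*, binds both BAFF and the related ligand APRIL. In resting cells TRAF3 brings TRAF2 and the ubiquitin ligases cIAP1 and cIAP2 to the kinase NIK, which is then degraded. When BAFF-R or CD40 draws TRAF3 away, NIK accumulates and the noncanonical NF-κB route, ending in NF-κB2 and RelB, is switched on. TNFR2, the product of *Tnfrsf1b*, also recruits TRAF2 with TRAF1 and the cIAPs, whereas TNFR1, the product of *Tnfrsf1a*, carries a death domain.

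Library totals ran from 6098941 to 11618787 counts, and 6.65% to 11.3% of them were ribosomal precursor reads (*Rn45s*). *Gpr174* reads fell on the side given by the genotype labels. Levels in CPM (read counts scaled to library size and composition) were 149.6, 149.5 and 157 in WT and 73.4, 76.7 and 74.0 in KO cells at 0 h, and 163, 169 and 153 in WT and 118, 106 and 105 in KO cells at 4 h. The reads that remained in KO cells cannot be placed within the locus from counts per gene. Of 10 B cell marker genes, 8 were above 0 in every library and *Ighd* and *Ighm* were in neither table. Their summed level was 8904 to 9828 CPM at 0 h, 5927 to 6145 CPM in WT cells at 4 h and 7392 to 7626 CPM in KO cells at 4 h. The summed level of 14 T cell markers was 132 to 252 CPM, and most of it came from *Cd2* and *Lck*, while *Cd3e*, *Cd3d* and *Cd3g* averaged at most 1.88 CPM in any group. In bulk RNA, fewer cells of a type and less RNA per cell cannot be told apart.

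The promoters of 4 of the 5 members that differed between genotypes after culture are shown first: both members that were higher in WT cells, and the BAFF receptors, which were lower. For each gene the 250 bases before the RefSeq start site (GRCm38.p6) are given in lower case, read 5′ to 3′ on the strand of the gene. Capitals mark matches to the κB pattern GGGNNNNNCC on either strand. The members higher in WT cells were *Tnfrsf1b* (chr4:145246871-145247120, minus strand) and *Traf1* (chr2:34961773-34962022, minus strand). The BAFF receptors were *Tnfrsf13b* (chr11:61126505-61126754, plus strand) and *Tnfrsf13c* (chr15:82224381-82224630, minus strand).
Tnfrsf1b: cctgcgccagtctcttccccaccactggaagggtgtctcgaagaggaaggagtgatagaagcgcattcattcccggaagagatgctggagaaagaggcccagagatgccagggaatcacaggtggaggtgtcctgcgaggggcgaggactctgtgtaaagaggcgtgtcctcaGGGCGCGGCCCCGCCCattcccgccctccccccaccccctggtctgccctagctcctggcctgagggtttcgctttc
Traf1: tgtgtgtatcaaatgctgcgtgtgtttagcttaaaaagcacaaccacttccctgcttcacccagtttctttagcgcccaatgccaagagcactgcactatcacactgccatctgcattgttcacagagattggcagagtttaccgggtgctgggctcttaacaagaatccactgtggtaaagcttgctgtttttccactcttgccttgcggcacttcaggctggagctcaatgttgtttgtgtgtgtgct
Tnfrsf13b: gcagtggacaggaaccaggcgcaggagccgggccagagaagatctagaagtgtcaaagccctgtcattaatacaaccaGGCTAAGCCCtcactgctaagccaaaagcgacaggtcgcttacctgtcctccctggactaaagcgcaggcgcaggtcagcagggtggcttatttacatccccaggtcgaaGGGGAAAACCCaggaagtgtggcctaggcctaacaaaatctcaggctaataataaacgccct
Tnfrsf13c: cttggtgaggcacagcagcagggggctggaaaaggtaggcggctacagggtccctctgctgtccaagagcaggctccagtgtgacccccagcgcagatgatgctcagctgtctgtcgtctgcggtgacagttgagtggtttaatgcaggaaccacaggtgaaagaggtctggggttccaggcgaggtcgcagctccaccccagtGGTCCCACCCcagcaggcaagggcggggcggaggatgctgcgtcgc
The κB pattern was found in 9 of 10 member promoters, in *Traf1* not, against 45.8% of 32851 RefSeq promoters of the same length and 61.9% of the 8278 tested genes that could be matched to a promoter. In *Traf3* the match GGGGATTTCC filled positions -10 to -1 before the start site. The cAMP response element TGACGTCA was found in 0 of 10, against 1.55% of all promoters and 2.86% of those of tested genes. Its shorter form TGACG, which the longer element contains, was found in 2 of 10 (*Traf2* and *Traf5*), against 17.8% and 28.4%. Both strands were searched and overlapping matches were kept. The κB pattern leaves its middle letters open, so it is loose and matches are common. A match is a run of letters and does not show binding.

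Levels of different members were compared per kilobase of exon. *Tnfrsf13c* stood far above the others, with 912 CPM per kb in WT and 859 CPM per kb in KO cells at 0 h (means, n = 3). It held 87.8% ± 0.462 (SD) of the summed member level in WT cells at 0 h and 74.2% ± 0.312 at 4 h. *Birc3* was next in all 4 groups, with 56.8 CPM per kb in WT cells at 0 h and 79.5 CPM per kb at 4 h. *Traf3* followed at 0 h with 23.0 CPM per kb in WT cells. *Tnfrsf13b* (10.3), *Traf2* (9.65) and *Tnfrsf1b* (8.79 CPM per kb) came after it in WT cells at 0 h, and neighbours in that order overlapped in range. *Traf1*, *Traf5* and *Cd27* lay between 5.68 and 6.11 CPM per kb in WT cells at 0 h, with overlapping ranges, and *Tnfrsf1a* lay far below at 0.367 CPM per kb. After culture *Tnfrsf1b* stood at rank 3 in WT cells with 18.4 CPM per kb (range 16.6 to 20.8), and its range did not touch that of *Traf3* below it. In KO cells it stood at rank 7 with 6.69 CPM per kb, overlapping both *Tnfrsf13b* and *Cd27*.

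**Figure D1:**
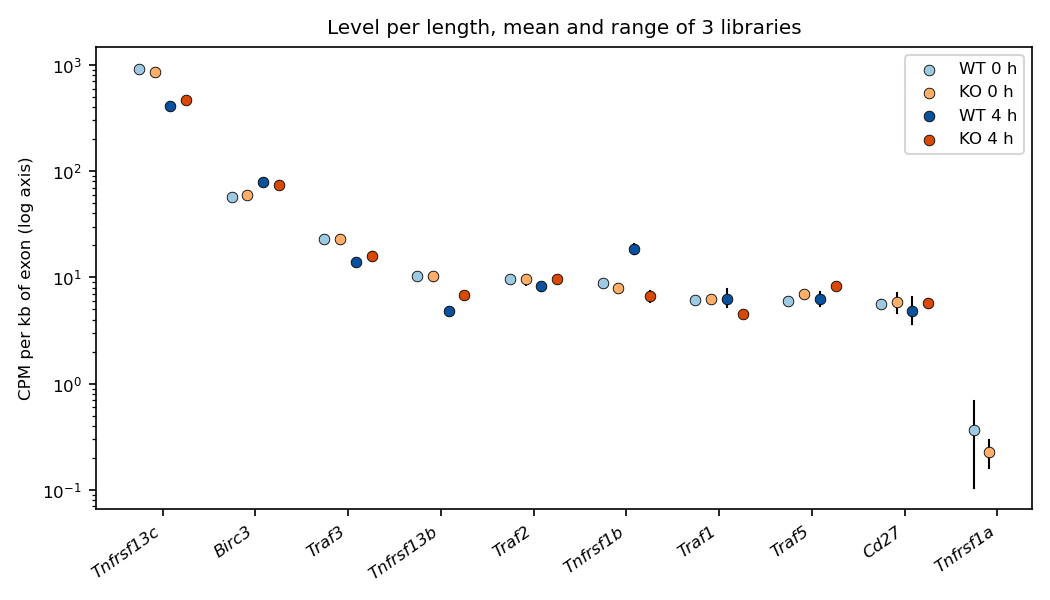
Level of each member per kilobase of exon on a log axis, as the mean (points) and range (bars) of 3 libraries in each group. *Tnfrsf13c* is highest in all 4 groups, and *Tnfrsf1b* is at rank 3 in WT cells and rank 7 in KO cells at 4 h. *Tnfrsf1a* has no 4 h value because it was below the row cutoff.

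Before culture none of the 9 tested members was called between genotypes at an adjusted p under 0.05 (edgeR quasi-likelihood test, Benjamini-Hochberg over all genes tested). Over all 11345 genes tested, 112 were called, or 0.987%. One member, *Traf5*, had an unadjusted p under 0.05, and DESeq2 called 0 members. The median log2 fold change (WT over KO) of the members was -0.00, against 0.00 over all genes. Ranges of CPM did not overlap for 2 of the 9, against 18.2% of all genes. *Tnfrsf1b* was slightly higher in WT cells (32.0, 36.0 and 32.7 CPM against 30.8, 29.3 and 30.1) at a log2 fold change of 0.15 (95% interval -0.07 to 0.36). *Traf5* was slightly lower in WT cells (27.0, 28.7 and 26.2 CPM against 31.6, 30.7 and 33.4) at -0.23 (95% interval -0.45 to -0.01, adjusted p = 0.36). For the other 7, the 95% intervals of the log2 fold change lay within -0.42 and 0.32.

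After 4 h of culture 5 of the 9 members differed between genotypes, against 10.9% of the 11123 genes tested. Leaving out 1 library lowered this count to 4 without WT replicate 2, 3 without WT replicate 1, 2 without WT replicate 3, KO replicate 1 or KO replicate 2, and 1 without KO replicate 3. Since the members were chosen with earlier results known, this and the later counts are a description beside the share of all genes. *Tnfrsf1b* and *Traf1* were higher in WT cells (5.22% of all genes were called in that direction). *Tnfrsf13b*, *Tnfrsf13c* and *Traf5* were lower in WT cells (5.67% of all genes). The median log2 fold change of the members was -0.21, against 0.00 over all genes. Ranges of CPM did not overlap for 7 of the 9, against 27.5% of all genes. The exceptions were *Cd27* and *Birc3*.

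**Figure D2:**
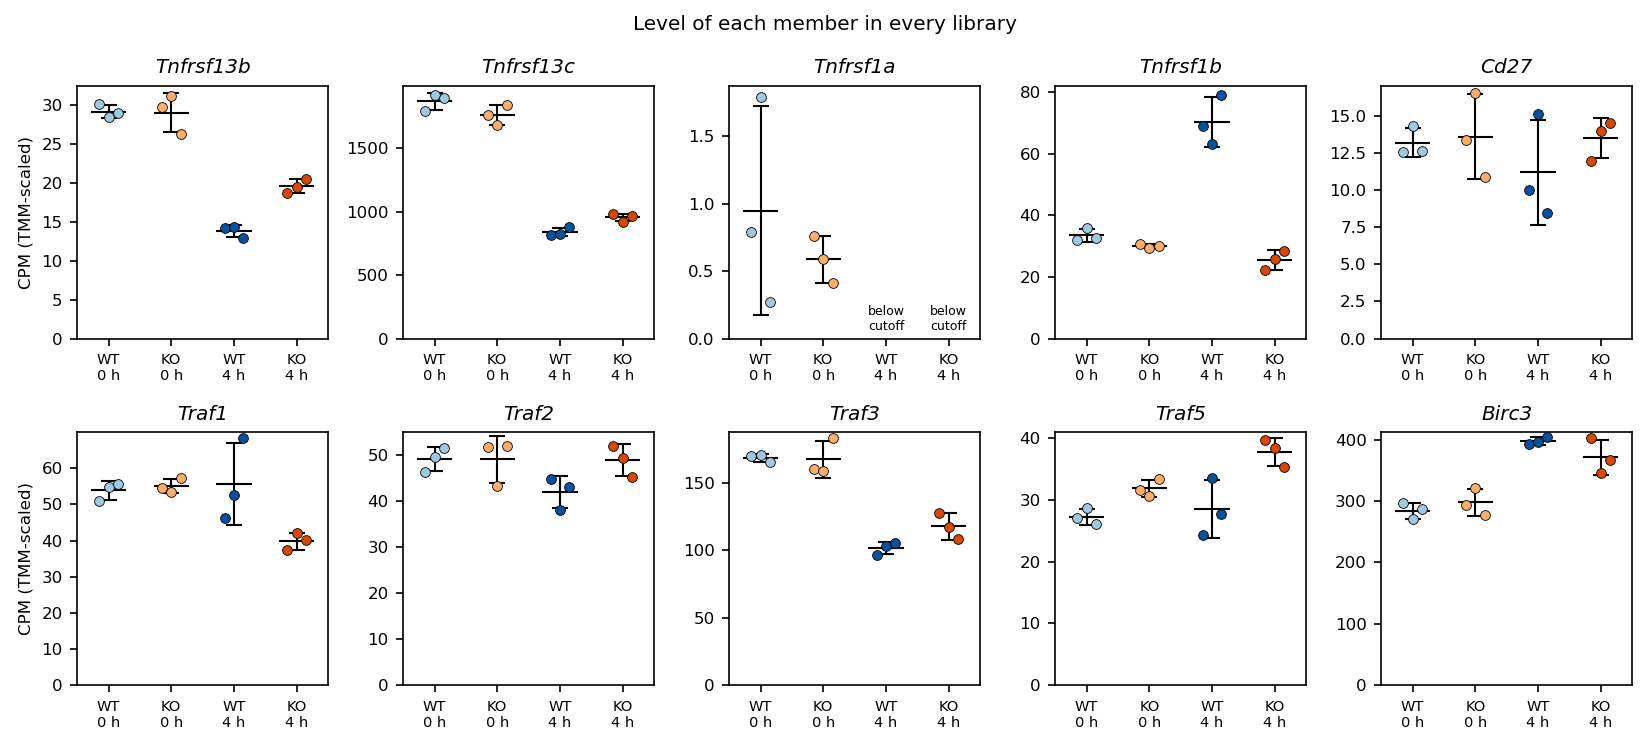
CPM of each member in every library (points), with the mean and SD of 3 libraries in each group (lines). In WT cells at 4 h the 3 *Tnfrsf1b* points lie at 63.2 to 79.2 CPM, above all other groups, while *Tnfrsf13b* and *Tnfrsf13c* are lower at 4 h than at 0 h in both genotypes.

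In WT cells 5 of the 9 members changed between 0 h and 4 h, against 33.1% of the 11572 genes tested. *Tnfrsf1b* and *Birc3* rose (15.1% of all genes rose), and *Tnfrsf13b*, *Tnfrsf13c* and *Traf3* fell (18% of all genes fell). In KO cells 5 members also changed, against 23.3% of all genes. There *Birc3* rose (10.3% of all genes rose), while *Tnfrsf13b*, *Tnfrsf13c*, *Traf1* and *Traf3* fell (13% of all genes fell). Ranges at 0 h and 4 h did not overlap for 6 of the 9 in WT cells (40.9% of all genes) and for 7 of the 9 in KO cells (41.9% of all genes). The medians were -0.23 in WT and -0.24 in KO cells, against 0.00 over all genes in both. The balance of rises and falls over all genes depended on scaling. With composition factors 1750 genes rose and 2080 fell in WT cells, and with plain library totals 3001 rose and 1500 fell, the median of all genes moving to 0.11. In KO cells the numbers were 1193 and 1504 with composition factors, and 2168 and 1101 with library totals. Each of the member calls in culture kept its direction under both scalings.

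The difference between the culture change in WT and in KO cells was tested directly, as an interaction. It passed for 3 of the 9 members, against 6.39% of all genes. With 1 library left out, the count stayed at 3 only without WT replicate 1 or 2 at 4 h. The count was 1 without WT replicate 2 or 3 or KO replicate 1 or 2 at 0 h, and without KO replicate 1 or 3 at 4 h. In the remaining fits only *Traf1* lost its call. The WT change was the more positive one for *Tnfrsf1b* and *Traf1* (2.45% of all genes were called in that direction) and the more negative one for *Tnfrsf13c* (3.94% of all genes). All comparisons at 4 h and in culture use some of the same libraries, so their values are given side by side and are not independent of each other.

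**Figure D3:**
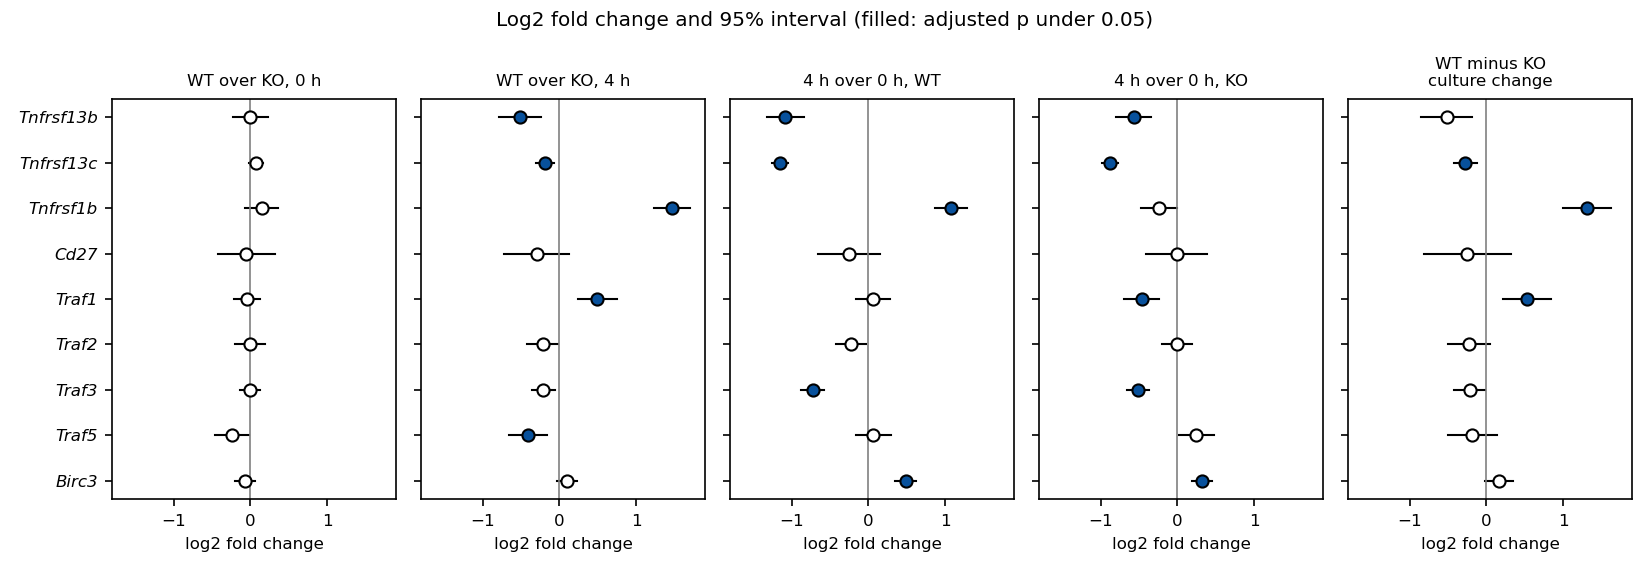
Log2 fold change (points) and 95% interval (lines) of the 9 tested members in each of 5 comparisons, filled where the adjusted p was under 0.05. No point is filled at 0 h, 5 are filled for genotype at 4 h, and *Tnfrsf1b* lies farthest from 0 at 4 h (1.47) and in the difference between culture changes (1.31).

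Both BAFF receptors fell in culture in both genotypes and were lower in WT than in KO cells afterwards. *Tnfrsf13c* had 1794, 1915 and 1893 CPM in WT and 1756, 1681 and 1839 CPM in KO cells at 0 h. After culture it had 817, 821 and 875 CPM in WT and 977, 921 and 964 CPM in KO cells. Every 4 h library was far below every 0 h library, and the genotypes overlapped at 0 h and were separate at 4 h. The level fell by 1.16 ± 0.05 on the log2 scale (± SE) in WT cells (edgeR adjusted p = 1.59e-13) and fell by 0.88 ± 0.05 in KO cells (adjusted p = 4.01e-11). The difference of -0.27 ± 0.07 between these changes gave an adjusted p of 0.021, and 0.0511 with plain library totals. Its call was lost without WT replicates 2 (0.058) or 3 (0.0523) or KO replicates 1 (0.0654) or 2 (0.0616) at 0 h, and without KO replicates 1 (0.0604) or 3 (0.0515) at 4 h. At 4 h the log2 fold change of WT over KO was -0.19 ± 0.06 (adjusted p = 0.045), a level 1.14-fold higher in KO cells. This last call was near the threshold. It was lost without filtering of low counts (adjusted p = 0.0513), and without each of WT replicates 1 (0.0669) and 2 (0.0842) and KO replicates 1 (0.159), 2 (0.0827) and 3 (0.154).

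*Tnfrsf13b* had 30.1, 28.5 and 28.9 CPM in WT and 29.7, 31.1 and 26.3 CPM in KO cells at 0 h. After culture it had 14.2, 14.4 and 12.9 CPM in WT and 18.7, 19.5 and 20.5 CPM in KO cells. The genotypes were intermingled before culture, and afterwards all WT libraries lay below all KO libraries. The level fell by 1.08 ± 0.11 on the log2 scale in WT cells (edgeR adjusted p = 1.65e-07) and fell by 0.57 ± 0.11 in KO cells (adjusted p = 0.000618). The genotype log2 fold change at 4 h was -0.51 ± 0.13 (adjusted p = 0.018), or 1.42-fold higher in KO cells. The difference between the culture changes, -0.51 ± 0.16, did not pass (adjusted p = 0.0607). The 4 h call was lost without WT replicate 3 (adjusted p = 0.086), KO replicate 2 (0.0619) or KO replicate 3 (0.0767), with log2 fold changes of -0.45 to -0.54 when any of the 6 libraries was left out.

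Of the TNF receptors only *Tnfrsf1b* could be tested. It had 68.9, 63.2 and 79.2 CPM in WT cells at 4 h, more than in any of the other 9 libraries, and 22.3, 25.8 and 28.5 CPM in KO cells at 4 h. From the 0 h values given above it rose by 1.08 ± 0.10 on the log2 scale in WT cells (edgeR adjusted p = 1.99e-08), a 2.11-fold rise. In KO cells the change was -0.24 ± 0.11 (95% interval -0.47 to -0.01, adjusted p = 0.133), although all 3 cultured KO libraries lay below the 3 KO libraries at 0 h. The difference between these changes was 1.31 ± 0.15 (adjusted p = 3.94e-06). After culture the level was 2.77-fold higher in WT cells (95% interval 2.36 to 3.25, log2 1.47 ± 0.11, adjusted p = 2.11e-07). Leaving out any 1 library gave log2 fold changes of 1.37 to 1.55 at 4 h and differences of 1.22 to 1.40, all past the threshold.

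*Tnfrsf1a* was hardly detected. Its 6 libraries at 0 h held 7, 16 and 3 reads in WT and 6, 4 and 3 reads in KO cells, 39 reads in all or 0.766 CPM over the pooled libraries. At 4 h it had no row, and since the smallest row held 10 reads, at most 9 reads lay in those 6 libraries together (0.198 CPM). The pooled 0 h level was above this limit. Of the 39 reads, 16 lay in 1 library, and neither culture nor genotype was tested for this gene. *Cd27*, the receptor for CD70, had 12.6, 14.3 and 12.7 CPM in WT and 13.4, 16.6 and 10.9 CPM in KO cells at 0 h. At 4 h it had 10.0, 15.2 and 8.44 CPM in WT and 11.99, 14.0 and 14.5 CPM in KO cells. The ranges overlapped in all comparisons and no test passed with all libraries. Without WT replicate 2 at 4 h the culture change in WT cells was -0.53 (edgeR adjusted p = 0.043), against -0.26 with all libraries. The 95% interval of its genotype log2 fold change at 4 h ran from -0.72 to 0.13, so moderate differences were not detectable. Of its exon bases, 5.54% are shared with the microRNA gene *Mir8113*, and reads of the pair cannot be told apart.

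The TRAF adaptors did not move together. *Traf1*, which joins TRAF2 at TNFR2 and is itself known as an NF-κB target, had 50.9, 54.9 and 55.7 CPM in WT and 54.5, 53.5 and 57.2 CPM in KO cells at 0 h. The cultured libraries had 46.1, 52.5 and 68.3 CPM in WT and 37.3, 42.0 and 40.2 CPM in KO cells. The cultured KO libraries were the lowest of all 12, and WT replicate 3 at 4 h was the highest. In KO cells the level fell by 0.47 ± 0.11 on the log2 scale (edgeR adjusted p = 0.00339), whereas the change in WT cells was 0.06 ± 0.11 (adjusted p = 0.695). At 4 h the level was 1.41-fold higher in WT cells (log2 0.50 ± 0.12, adjusted p = 0.0147), and the difference between culture changes was 0.53 ± 0.15 (adjusted p = 0.0402). WT replicate 3 carried part of this: without it the 4 h log2 fold change was 0.31 (adjusted p = 0.0932), the WT culture change -0.13 and the difference 0.34 (adjusted p = 0.158). The 4 h call was also lost without KO replicate 1 (adjusted p = 0.0781) or 3 (0.0504), and the call of the difference without 10 of the 12 libraries, WT replicates 1 and 2 at 4 h being the exceptions. The fall in KO cells held without any 1 of its 6 libraries.

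*Traf3*, the adaptor that holds NIK in check, fell in both genotypes. It had 169.9, 171 and 166 CPM in WT and 161, 159 and 183 CPM in KO cells at 0 h. The cultured libraries had 96.7, 103 and 105 CPM in WT and 128, 117 and 108 CPM in KO cells. All cultured libraries lay below all uncultured ones. The level fell by 0.73 ± 0.07 on the log2 scale in WT cells (edgeR adjusted p = 4.28e-08) and fell by 0.51 ± 0.07 in KO cells (adjusted p = 1.16e-05). The genotypes did not overlap at 4 h, yet the log2 fold change of -0.21 ± 0.07 did not pass (adjusted p = 0.0822), nor did the difference between culture changes of -0.22 ± 0.10 (adjusted p = 0.252).

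*Traf5*, an adaptor of CD27 and CD40, was given above at 0 h. After culture it had 24.4, 33.6 and 27.7 CPM in WT and 39.8, 38.5 and 35.3 CPM in KO cells. The WT libraries were below the KO libraries at both times. The genotype log2 fold change at 4 h was -0.41 ± 0.12 (edgeR adjusted p = 0.0339), a level 1.33-fold higher in KO cells, and the difference between culture changes was -0.18 ± 0.15 (adjusted p = 0.624). The 4 h call held without WT replicate 2, and was lost without WT replicates 1 (0.104) and 3 (0.113) or KO replicates 1 (0.131), 2 (0.113) and 3 (0.0532). The culture change in KO cells, 0.25 ± 0.11, did not pass (adjusted p = 0.106), but did so with library totals (0.34, adjusted p = 0.0297) and in a fit of the 6 KO libraries alone (0.24, adjusted p = 0.043). *Traf5* shares 4.49% of its exon bases with the antisense gene *Gm26879*, and 1.42% with the microRNA gene *Mir3473c* on the same strand. The strand setting of the counts is not given in the sources used here, so reads of *Traf5* and *Gm26879* may be mixed. Reads from the bases shared with *Mir3473c* cannot be told apart.

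*Traf2*, the adaptor that links the receptors to the cIAPs, had 46.4 to 51.5 CPM in WT and 43.3 to 52.2 CPM in KO cells at 0 h. At 4 h it had 44.9, 38.2 and 43.1 CPM in WT and 52.2, 49.5 and 45.3 CPM in KO cells. WT libraries lay just below KO libraries at 4 h, and no comparison passed with all libraries. The culture change in WT cells, -0.23 ± 0.09, passed only without WT replicate 1 at 0 h (edgeR adjusted p = 0.0495). The log2 fold change at 4 h was -0.22 ± 0.09 (edgeR adjusted p = 0.16). *Birc3*, which encodes cIAP2, had 296, 270.1 and 287 CPM in WT and 294, 322 and 277 CPM in KO cells at 0 h. The cultured libraries had 394, 396 and 405 CPM in WT and 402, 346 and 367 CPM in KO cells. It was higher after culture in every library. It rose by 0.49 ± 0.06 on the log2 scale in WT cells (adjusted p = 3.43e-06) and by 0.32 ± 0.06 in KO cells (adjusted p = 0.000778). The genotypes overlapped at both times, with a log2 fold change of 0.10 (95% interval -0.03 to 0.23) at 4 h.

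**Figure D4:**
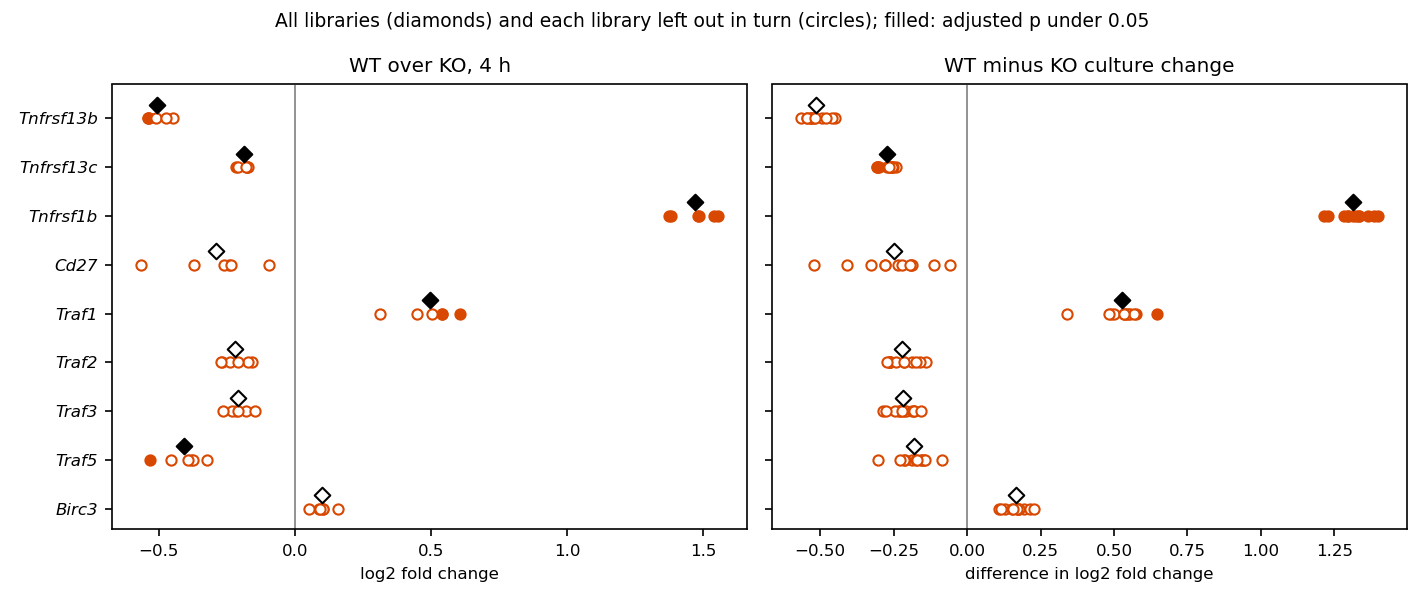
Log2 fold change of each tested member with all libraries (diamonds) and with each library left out in turn (circles), for WT over KO at 4 h (left) and the difference between culture changes (right), filled where the adjusted p was under 0.05. *Tnfrsf1b* stays filled in all of them, and the *Traf1* circle nearest to 0 is the fit without WT replicate 3 at 4 h.

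The rest of the pathway was read from a list of 80 ligands, receptors, adaptors, kinases, restraining enzymes and NF-κB proteins, of which 67 were in at least 1 table. This list was also drawn up with earlier results known, so its counts are a description. At 0 h edgeR called 0 of the 59 tested, 9 had an unadjusted p under 0.05, and DESeq2 called 0. At 4 h 14 of 60 differed between genotypes, or 23.3%, with 5 higher and 9 lower in WT cells. In culture 30 of 60 changed in WT cells (11 rose, 19 fell) and 22 of 60 in KO cells (5 rose, 17 fell). The difference between culture changes passed for 7 of 60, or 11.7%. The median log2 fold change of the list was -0.01 at 4 h, -0.11 in WT culture, -0.07 in KO culture and -0.02 for the difference. Of all genes, 10.9% were called at 4 h, 33.1% in WT culture, 23.3% in KO culture and 6.39% for the difference. At 4 h 5.22% of all genes were higher and 5.67% lower in WT cells, which also applies to the counts by role below.

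**Figure D5:**
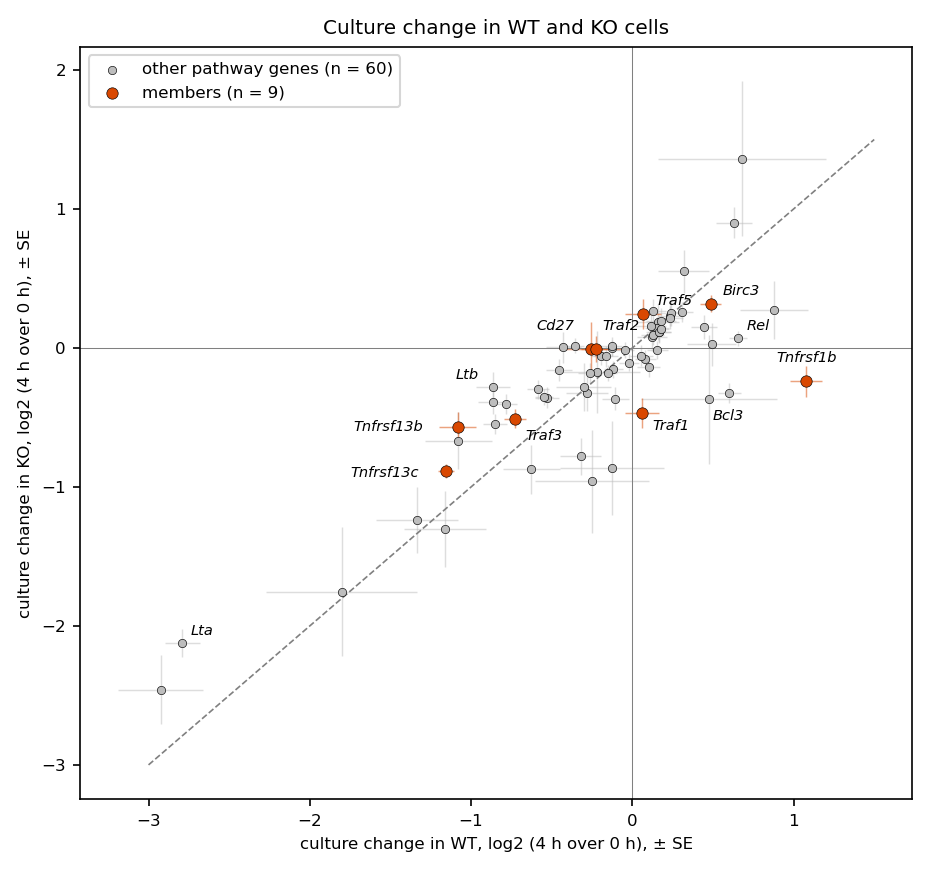
Log2 change from 0 h to 4 h in WT cells (horizontal) and KO cells (vertical), with SE bars, for the 9 tested members (orange) and the 60 tested genes of the pathway list (grey). Points on the dashed line changed equally. *Tnfrsf1b* lies at 1.08 in WT and -0.24 in KO cells, farthest below the line among the members.

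*Tnfsf13b*, which encodes BAFF, averaged 0.0298 to 0.566 CPM in the 4 groups and was not tested, and *Tnfsf13* (APRIL), *Cd40lg* and *Cd70* were in neither table. Of 5 ligands tested, 5 fell in WT cells (18% of all genes fell) and 4 fell in KO cells (13% of all genes fell). *Lta*, which encodes lymphotoxin-α, averaged 53.3 ± 2.12 CPM (SD, n = 3) in WT and 51.8 ± 1.36 CPM in KO cells at 0 h, and 7.66 ± 0.787 and 11.9 ± 0.590 CPM at 4 h. Its culture changes were -2.79 ± 0.11 in WT and -2.12 ± 0.10 in KO cells (log2), and the difference of -0.67 ± 0.16 passed (edgeR adjusted p = 0.00931). Its partner *Ltb* averaged 30.3 ± 2.17 CPM in the cultured WT libraries and 42.5 ± 6.48 CPM in the cultured KO libraries (log2 fold change -0.48 ± 0.11, adjusted p = 0.0128). The difference between the culture changes of *Ltb* was -0.58 (adjusted p = 0.0204), a call lost in 3 of 12 fits with 1 library left out. *Tnf* itself, named after its values were seen, had culture changes of -2.92 ± 0.26 in WT and -2.46 ± 0.25 in KO cells (adjusted p = 1.38e-08 and 1.62e-07), from 31.9 ± 4.79 and 33.5 ± 6.38 CPM before culture. Of the 13 myeloid markers, *Vcam1* (-4.74 in WT and -4.59 in KO cells), *Hmox1* (-2.94 and -3.35), *Csf1r* (-1.76 and -2.26) and *Lyz2* (-1.49 and -1.04) also fell in culture in both genotypes, and *C1qa*, *C1qb*, *C1qc*, *Cd14* and *Fcgr1* had rows at 0 h only. *Mpeg1* rose in WT cells (0.78) and fell in KO cells (-0.90), and *Emr1* rose in KO cells (1.13). *Cd68* (-0.19 in WT and -0.08 in KO cells) and *Itgam* (-0.37 and -0.46) were not called in culture in either genotype. These markers were named after their values were seen, and their part in the ligand changes was not tested.

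Among 12 other receptors tested, only *Cd40* differed between genotypes at 4 h. CD40 is the receptor for the T cell ligand CD40L. It averaged 133 ± 10.2 CPM in WT and 131 ± 3.48 CPM in KO cells at 0 h, and 73.0 ± 12.2 CPM in WT and 99.7 ± 4.17 CPM in KO cells at 4 h (log2 fold change -0.44 ± 0.10, edgeR adjusted p = 0.00682). It fell in WT (-0.87 ± 0.09) and in KO cells (-0.39 ± 0.09), with a difference of -0.47 ± 0.12 (adjusted p = 0.0224, and 0.0521 with library totals). That call was also lost without WT replicate 3 (0.0665) or KO replicate 3 (0.0584) at 0 h, or KO replicate 1 at 4 h (0.0704). *Ltbr*, the lymphotoxin receptor, and *Tnfrsf17*, the receptor BCMA, were in neither table.

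Of 17 other adaptors and ligases, *Traf4* (0.46 ± 0.13) was higher and *Traf3ip3* (-0.25 ± 0.06) and *Cflar* (-0.23 ± 0.06), which encodes the caspase-8 inhibitor c-FLIP, were lower in WT cells at 4 h. Only *Traf3ip3* of the 17 also passed for the difference between culture changes (-0.37, edgeR adjusted p = 0.0026). It kept that call when any 1 library was left out. *Birc2*, which encodes cIAP1, was not called in any comparison. Of 11 kinases, *Ikbkb*, which encodes IKKβ, was called at 4 h (log2 fold change -0.29 ± 0.07, edgeR adjusted p = 0.0184). The difference between its culture changes was -0.38 (adjusted p = 0.0204), a call lost in 5 of 12 fits with 1 library left out. *Map3k14*, which encodes NIK, was not called in any comparison. Its 4 h log2 fold change was 0.08 ± 0.08. Of 6 restraining enzymes and their partners, *Tnip2* (-0.44 ± 0.11) and *Fam105b* (-0.38 ± 0.09), which encodes the deubiquitinase OTULIN, were lower in WT cells.

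Of 9 NF-κB subunits and inhibitors tested at 4 h, 4 were higher (5.22% of all genes) and 1 was lower (5.67% of all genes) in WT cells. *Bcl3*, which encodes a nuclear partner of NF-κB, averaged 143 CPM (range 139 to 149) in WT and 85.1 CPM (79.2 to 88.7) in KO cells at 4 h (log2 0.75 ± 0.07, edgeR adjusted p = 1.88e-06). It rose in WT cells (0.60 ± 0.07) and fell in KO cells (-0.33 ± 0.07), a difference of 0.93 ± 0.10 (adjusted p = 2.59e-06). *Rel*, which encodes c-Rel, averaged 558 ± 36.7 CPM in WT and 380 ± 10.6 CPM in KO cells at 4 h (log2 0.56 ± 0.06, adjusted p = 1.48e-05), with a difference between culture changes of 0.59 ± 0.08 (adjusted p = 2.96e-05). The noncanonical subunits were higher in WT cells at 4 h too, *Nfkb2* by 0.39 ± 0.07 (adjusted p = 0.000979) and *Relb* by 0.36 ± 0.07 (adjusted p = 0.00424). The difference between culture changes passed for 2 of the 9, *Bcl3* and *Rel*, against 6.39% of all genes, and not for *Nfkb2* or *Relb*. *Nfkb2* was at 0.14 ± 0.07 at 0 h (adjusted p = 0.415) and was not called in culture in either genotype. *Bcl3*, *Rel*, *Nfkb2*, *Relb* and *Cd40* kept their 4 h calls when any 1 library was left out. The inhibitor that was lower, *Nfkbie* (-0.23 ± 0.07, adjusted p = 0.0446), named after its values were seen, lost its call in 5 of 6 such fits, with DESeq2 (0.0646), without the filter (0.0533) and with all 12 libraries fitted (0.0518). *Lta* lost its 4 h call in 5 of 6 such fits and with DESeq2 (0.0586), *Cflar* and *Ikbkb* in 4, *Traf4* in 3 and with DESeq2 (0.0514), and *Ltb*, *Traf3ip3*, *Tnip2* and *Fam105b* in 1.

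Markers of other cells were examined beside these differences. At 4 h the summed level of 13 myeloid markers was 56.0 to 82.9 CPM in WT and 49.8 to 63.3 CPM in KO cells, with 5 of the 13 in no row of the 4 h table. Among the 13, *Mpeg1*, a gene that B cells also express, had a row and was higher in WT cells (log2 1.08). At 0 h it was lower in WT cells (log2 -0.61, edgeR adjusted p = 0.0219). The T cell sum was 132 to 153 CPM in the cultured WT libraries and 147 to 166 CPM in the cultured KO libraries. As described above, most of it came from *Cd2* and *Lck*, and *Lck* was lower in WT cells (log2 -0.62). Of the 8 B cell markers counted, 5 were lower in WT cells at 4 h, among them *Ms4a1* (log2 -0.59), *Cd22* (-1.03) and *Fcer2a* (-0.90). The sum of 8 cell cycle genes was 116 to 166 CPM in WT and 161 to 288 CPM in KO cells at 4 h. It was 143 to 228 CPM in WT and 358 to 514 CPM in KO cells at 0 h. *Mki67*, *Top2a*, *Ccna2*, *Cdk1* and *Cenpf* were called lower in WT cells at 0 h, and *Ccnb1*, *Birc5* and *Aurkb* were not called. *Mki67* and *Ccna2* were also called at 4 h. Marginal zone B cell markers summed to 107 to 114 CPM in WT and 105 to 113 CPM in KO cells at 4 h. Of these only *Cd1d1* was called, lower in WT cells (log2 -0.45). The part of these cells in the member differences was not tested.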

How the data were processed

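Follicular B cell RNA from 12 libraries was sequenced with 50-base single-end reads. The values the authors deposited are unnormalized counts of reads for each gene, in 1 table for each time, with no row under 10 reads over its 6 libraries. STAR, HTSeq, DESeq2 and the build mm10 are named in the submitters' processing notes. Versions, annotation and the strand setting are not given in the sources used here.

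Counts were tested with edgeR 4.0.16 (R 4.3.3, limma 3.58.1, TMM factors, filterByExpr, quasi-likelihood test, two-sided, Benjamini-Hochberg over all genes tested, threshold 0.05). Genotype was tested within the 6 libraries of each time, and culture and the interaction in all 12 libraries. Every p-value in the report without another name is from this test. DESeq2 1.42.0, RLE factors, library totals, no filter, removal of *Rn45s*, other library sets, a replicate block and leaving out each library were alternatives. The steps were tested on simulated data, with planted changes larger than most of the member differences. Recovery of smaller changes was not tested. Exon lengths came from GENCODE and promoters from RefSeq.

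The members and gene lists were chosen with earlier results of these data known. All members were named, with *Gpr174* and, for each role of the pathway list, up to 4 called genes with the largest change at 4 h or in the interaction, genes in no table, and the 5 genes most like each of the 2 members with the largest change at 4 h.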

Additional observations from a re-analysis of the deposited data

Results flagged for a closer look

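For 3 members the culture change differed between WT and KO cells by the interaction test (edgeR quasi-likelihood test, Benjamini-Hochberg adjusted). The WT minus KO difference in log2 change was 1.31 for *Tnfrsf1b* (adjusted p = 3.94e-06), 0.53 for *Traf1* (adjusted p = 0.0402) and -0.27 for *Tnfrsf13c* (adjusted p = 0.021). When 1 of the 12 libraries was left out, *Tnfrsf1b* passed in all 12 fits, *Tnfrsf13c* lost its call in 6 and *Traf1* in 10. Groups of 3 libraries were too small to test for a sample far from the others.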

How the results depend on the processing

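The number of members called at 4 h was 1 to 4 when 1 library was left out, against 5 with all. The interaction gave 1 to 3 members and the pathway list 8 to 14 genes at 4 h. Over all genes at 0 h, 26 to 161 were called, against 112 with all libraries (50 without WT replicate 2, 59 without WT replicate 3, 26 without KO replicate 1 and 55 without KO replicate 3). Uncalled values that changed sign at 0 h when 1 library was left out ran from -0.071 to 0.054 for *Tnfrsf13b*, -0.19 to 0.12 for *Cd27*, -0.066 to 0.0019 for *Traf1*, -0.082 to 0.038 for *Traf2* and -0.029 to 0.068 for *Traf3*. In WT culture they ran from -0.13 to 0.18 for *Traf1* and -0.057 to 0.16 for *Traf5*, and in KO culture from -0.15 to 0.15 for *Cd27* and -0.088 to 0.047 for *Traf2*. With library totals *Traf3* at 0 h was -0.029, and in KO culture *Cd27* was 0.081 and *Traf2* 0.084. At 0 h *Tnfrsf13b* and *Traf2* were 0.0053 and 0.0017 without the filter and 0.0068 and 0.0027 with all 12 libraries fitted. The cause of these changes was not tested. With the replicate block *Tnfrsf13b* at 0 h was 0.0025, 4 members were called at 4 h, and *Tnfrsf13c* lost its 4 h call (adjusted p = 0.0854). The block changed no other call of a member, and at 4 h it removed the calls of *Cflar* (0.0545) and *Nfkbie* (0.0564). Replicate numbers did not pair the genotypes (correlations of deviations -0.0986 to 0.0728). Between 0 h and 4 h they were 0.126, 0.0718 and 0.117 in WT and -0.0402, 0.145 and 0.152 in KO cells. Each WT library correlated best with its own number, and KO replicate 1 did not. Leaving out a library leaves 2 in its group, with the spread pooled over groups.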

Other observations

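Over the 12 libraries, the genes whose log2 CPM followed *Tnfrsf1b* most closely among 11571 compared were *Vps37b* (Pearson r = 0.981), *Cblb* (0.981), *P2ry10* (0.976), *Ppp1r16b* (0.971) and *1700017B05Rik* (0.968). For *Tnfrsf13b* they were *Tmem154* (0.989), *Cd180* (0.989), *4632428C04Rik* (0.988), *Bend5* (0.988) and *Coro2a* (0.988). These values are a description, since the libraries share the same 4 groups.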
